A study of Sus scrofa with 50 samples.

Results

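RNA from the tissue labelled brain of Korean minipigs (Sus scrofa) was compared between the ET type and the L type. The comparison used the libraries of 4 ET animals, numbered S0242, S0276, S0309 and S0326, and of 4 animals of the L type, numbered S0349, S0377, S0384 and S0385, which are 8 of the 10 brain libraries and 8 of the 50 libraries of the series. The series set out to assemble the transcriptome of this miniature breed, and its libraries cover backfat, brain, loin, lymph and tenderloin of each animal. No animal received a treatment in the labels, ET and L are not spelled out in the sources used here, and age and sex are not given there. Stranded mRNA libraries were prepared from TRIzol-extracted total RNA. The values are TPM, a length-normalised share of each library's transcripts, summed here by the closest Swiss-Prot protein and named by its gene.

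The 8 libraries were chosen by measured values. The brain libraries of ET animal S0235 and L animal S0355 were left out because they were rich in myelin transcripts and poor in transcripts of pituitary hormones. MBP, myelin basic protein, stood at 30538 and 37999 TPM in those 2 libraries and at 16.0 to 80.1 TPM in the 8 kept. POMC, the precursor of corticotropin and melanotropin, stood at 5271 to 77972 TPM in the 8 and at 6.92 and 7.75 TPM in the 2 left out. No library lay between these ranges. The hormone and myelin transcripts are therefore described below without a reported test of their own. They stayed among the genes fitted and in the counts of genes and lists, and POMC also served as a covariate in an alternative fit.

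The pituitary has an anterior lobe of hormone-secreting cells, an intermediate lobe of melanotrophs that make melanotropin from POMC, and a posterior lobe built of axons from the hypothalamus and glial cells called pituicytes. In the anterior lobe, lactotrophs make prolactin (PRL), corticotrophs make corticotropin from POMC, and gonadotrophs and thyrotrophs share the alpha subunit CGA. Prohormones are cut by convertases such as PCSK2 and stored in dense-core granules with granins. The growth hormone gene and the beta subunits of the gonadotropins and thyrotropin were not matched in the annotation and are not analysed here.

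The label brain was checked against markers that did not choose the libraries. PITX1, a homeobox factor of the developing and adult pituitary, was at 54.3 to 238 TPM in the 8 libraries, at 0.0961 and 0.0634 TPM in the 2 left out, and at most at 25.4 TPM in the other tissues of the same animals. The epithelial adhesion protein EPCAM was at 266 to 438 TPM in the 8, against at most 3.52 TPM in the other tissues. GFAP, the filament protein of astrocytes, was at 0.985 to 43.6 TPM in the 8 and at 5001 and 15095 TPM in the 2 left out. Not every listed marker set the 8 apart. The pituitary factor SOX2 was at 60.6 to 205 TPM in the 8 and at 50.9 and 129 TPM in the 2 left out. GATA2, another such factor, was at 2.14 to 20.5 TPM in the 8 and reached 32.6 TPM in the other tissues. S100B, from the same list as EPCAM, was at 480 to 2158 TPM in the 8 and at 8014 and 10066 TPM in the 2 left out. The 8 libraries thus carry pituitary transcripts under a brain label, and what was dissected is not stated in the sources used here.

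Each library summed to the same TPM total, so read depth is unknown and the spread between animals is the only measure of precision. Between 12772 and 13172 genes reached 1 TPM per library, and the mean was 12864 ± 98.7 genes in ET and 13008.5 ± 118 genes in L (SD, n = 4 each). The 10 most abundant genes took 16.6% ± 4.10 of the TPM in ET and 11.8% ± 1.37 in L, and this measure includes the hormone transcripts that chose the libraries. Without the 3 hormone genes the top 10 took 10.9% ± 2.65 in ET and 9.62% ± 0.634 in L. The share of TPM in transcripts with no usable protein hit was 16.9% ± 1.41 in ET and 18.3% ± 1.36 in L. Two-sided exact permutation tests over the 4 against 4 libraries gave p = 0.114 for the genes detected, 0.486 for the top 10 without hormone genes and 0.229 for the unmatched share, or 0.343, 0.486 and 0.343 after adjustment over the 3, where the smallest p the design allows is 0.0286.

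Library values below run in the order S0242, S0276, S0309 and S0326 for ET and S0349, S0377, S0384 and S0385 for L. POMC was at 18142, 22387, 8711 and 77972 TPM in the ET libraries and 7968, 5988, 21736 and 5271 TPM in the L libraries. ET animal S0326 had the highest level, and the groups overlapped, since L animal S0384 lay above ET animals S0242 and S0309. PRL was at 40120.5, 13821, 32767 and 1331 TPM in the ET libraries and 16244, 11098, 805 and 10310.1 TPM in the L libraries. S0326 was the lowest ET library and S0384 the lowest L library, and the other 3 libraries of each type overlapped. CGA was at 21655, 11691, 23408 and 3690.3 TPM in the ET libraries and 28265, 12979, 2085 and 5389 TPM in the L libraries, with S0326 and S0384 the lowest of their types. Summed over the 3 matched hormone genes, the level was 47899 to 82994 TPM in ET and 20971 to 52477 TPM in L. In bulk tissue, fewer cells of a type and less RNA per cell cannot be told apart.

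**Figure D1:**
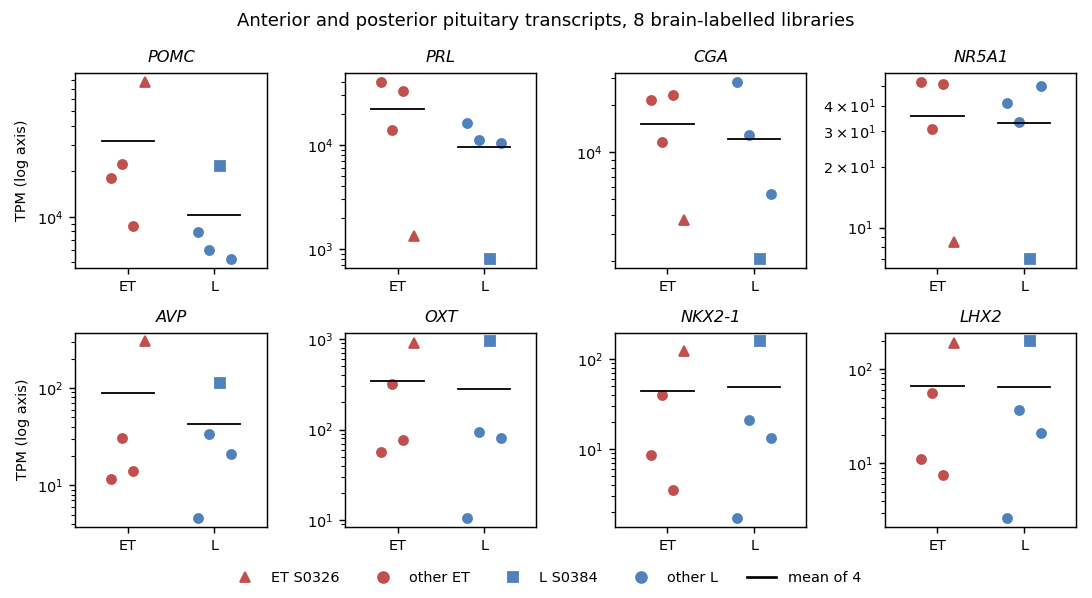
TPM on a log axis for 3 hormone transcripts and NR5A1 of the anterior pituitary (top) and 4 transcripts of the posterior lobe and its hypothalamic axons (bottom), with 1 point per library, ET left of L and the arithmetic mean of 4 as a line. The triangle (ET S0326) and the square (L S0384) lie at the same end of each panel, low for PRL, CGA and NR5A1 and high for POMC, AVP, OXT, NKX2-1 and LHX2.

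Libraries S0326 and S0384 stood apart from the other 6 across all genes. The first principal component of log2(TPM + 1) held 57.4% of the variance, and these libraries had scores of 77.7 and 59.6, against -30.6 to -2.8 for the others. AVP, the vasopressin precursor made in hypothalamic neurons that end in the posterior lobe, was at 11.7, 30.9, 14.2 and 301 TPM in the ET libraries and 4.62, 33.9, 111 and 20.9 TPM in the L libraries. OXT, the oxytocin precursor of the same system, was at 57.1, 319, 76.9 and 919 TPM in the ET libraries and 10.5, 93.9, 945 and 81.6 TPM in the L libraries, and it was listed at 0 in the other 4 tissues of these animals. NKX2-1, a homeobox factor of the hypothalamus and posterior lobe, was at 8.57, 40.4, 3.53 and 125 TPM in the ET libraries and 1.71, 21.3, 158 and 13.3 TPM in the L libraries. LHX2, a homeobox factor of the same territory, was at 11.2, 56.4, 7.52 and 191 TPM in the ET libraries and 2.63, 36.5, 197 and 20.9 TPM in the L libraries. For each of these transcripts S0326 was the highest ET library and S0384 the highest L library. All 7 matched genes of the posterior-lobe list reached 1 TPM in each of the 8 libraries, and their summed level was 130.3 to 1616 TPM in ET and 54.9 to 1519.6 TPM in L.

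For 3 transcripts of anterior-lobe cells the same libraries lay at the opposite end. NR5A1, the gonadotroph factor SF-1, was at 52.2, 30.7, 51.4 and 8.52 TPM in the ET libraries and 41.3, 33.0, 7.03 and 49.7 TPM in the L libraries. GNRHR, the receptor through which gonadotrophs read hypothalamic GnRH, was at 27.0, 22.4, 31.9 and 7.60 TPM in the ET libraries and 41.6, 44.1, 7.06 and 26.5 TPM in the L libraries. CHGA, the granule protein chromogranin A, was at 733, 648, 1097 and 258 TPM in the ET libraries and 1846, 1662, 246 and 1422 TPM in the L libraries. S0326 was the lowest ET library and S0384 the lowest L library for all 3. PCSK2, the convertase that releases melanotropin from POMC, was instead at 98.1, 163.3, 24.6 and 262 TPM in the ET libraries and 19.3, 48.5, 194 and 48.8 TPM in the L libraries, with both libraries the highest of their types. S0326 held the lowest of the 4 ET values for 62.8% of the genes tested, and S0384 the lowest of the 4 L values for 52.6%. The part of this difference in each result below was not tested.

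ET and L libraries were then compared gene by gene, which asks how the types differ in this tissue. Of 13096 genes with a mean of at least 1 TPM, none passed an adjusted p under 0.05 by limma (0 called, 0% of the genes tested), and 1080 had an unadjusted p under 0.05. Of these, 55 were higher in ET (0.42% of the genes tested) and 1025 were lower (7.83%). The 4 ET values lay wholly above the 4 L values for 42 genes (0.321%) and wholly below them for 863 genes (6.59%). The median log2 fold change over all genes was -0.19, on the log2(TPM + 1) scale and as ET minus L, and 79.4% of the genes had a negative value. Scaling the libraries by their median ratio moved that median to -0.01, still with 0 calls, and the genes at an unadjusted p under 0.05 then divided into 343 higher (2.62%) and 448 lower (3.42%). Fold changes below are best read against -0.19 where they come from the 8 libraries as deposited. The median to read against was -0.01 after median-ratio scaling and -0.12 without S0326 and S0384. The smallest adjusted p was 0.585, so each gene that follows is given by its values, as one that did not pass the test.

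Among genes with a mean of at least 5 TPM in the higher type, the 5 with the smallest p on the ET side were CCDC71, KCNF1, FREY1, C1QL2 and NEFH. KCNF1, a modifier subunit of voltage-gated potassium channels, was at 17.9, 11.3, 8.49 and 6.35 TPM in the ET libraries and 3.35, 1.23, 3.84 and 2.36 TPM in the L libraries. The groups did not overlap. The log2 fold change was 1.67 (95% interval 0.88 to 2.46; limma, unadjusted p = 0.00103), and the highest KCNF1 level in the other tissues of these animals was 0.227 TPM. C1QL2, a secreted C1q-like protein of synapses, was at 19.4, 5.94, 4.16 and 5.07 TPM in the ET libraries and 3.19, 0.623, 0.294 and 0 TPM in the L libraries, with S0242 far above the other ET libraries. Its log2 fold change was 2.24 (95% interval 1.01 to 3.47), or 1.80 without S0242 and 3.69 with a pseudocount of 0.1, and L animal S0385 was listed at 0.

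CCDC71, a coiled-coil protein, was at 43.8, 40.7, 45.0 and 49.2 TPM in the ET libraries and 26.8, 26.0, 24.2 and 30.6 TPM in the L libraries, a narrow band in each type with no overlap. Its log2 fold change was 0.71 (95% interval 0.40 to 1.02; limma, unadjusted p = 0.000578). FREY1, a membrane protein known from mice for its role in sperm and egg fusion, was at 82.0, 93.5, 89.4 and 132 TPM in the ET libraries and 61.1, 49.1, 68.1 and 52.9 TPM in the L libraries. NEFH, the heavy neurofilament subunit of large axons, was at 28.4, 26.8, 22.1 and 19.8 TPM in the ET libraries and 17.4, 15.4, 13.5 and 15.6 TPM in the L libraries. Both had the lowest ET library above the highest L library, with log2 fold changes of 0.76 (95% interval 0.35 to 1.17) for FREY1 and 0.61 (95% interval 0.21 to 1.002) for NEFH. With 1 transcript per gene in place of the sum, the log2 fold changes were 3.36 for FREY1 and 1.32 for NEFH. NEFH is the sole member of the neuron list at an unadjusted p under 0.05, out of 7 tested, or 14.3%, against 0.42% of all genes higher. NEFH was itself named by its p in these data, so that count adds no support. The neuron list had a median log2 fold change of 0.26, against -0.19 over all genes.

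On the L side, the 5 genes with the smallest p were CELSR1, TNRC18, SPRY1, GCNT2 and NADSYN1. CELSR1, a cadherin of planar cell polarity, was at 12.6, 9.70, 9.43 and 10.6 TPM in the ET libraries and 20.7, 21.5, 37.6 and 33.7 TPM in the L libraries. The groups did not overlap, and the log2 fold change of -1.31 (95% interval -1.83 to -0.78; limma, unadjusted p = 0.000324) had the smallest p of all genes tested at this level. GCNT2, the enzyme that branches the I blood group sugar chain, was at 6.65, 9.53, 6.95 and 6.79 TPM in the ET libraries and 13.9, 12.8, 21.0 and 17.4 TPM in the L libraries, with a log2 fold change of -1.02 (SE 0.21). SPRY1, an inhibitor of receptor tyrosine kinase signalling, was at 41.9, 47.7, 46.1 and 37.0 TPM in the ET libraries and 61.9, 69.3, 75.1 and 72.3 TPM in the L libraries.

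TNRC18, a large nuclear protein bound to chromatin, was at 26.0, 28.9, 23.3 and 25.2 TPM in the ET libraries and 36.9, 48.1, 46.1 and 47.8 TPM in the L libraries. NADSYN1, the synthetase of the last step of NAD formation, was at 29.2, 27.9, 25.2 and 31.1 TPM in the ET libraries and 43.4, 42.1, 43.1 and 47.9 TPM in the L libraries. For SPRY1, TNRC18 and NADSYN1 the groups did not overlap, and the log2 fold changes were -0.68, -0.76 and -0.62. The 10 genes kept their direction under every alternative run for them, among them median-ratio scaling, where the log2 fold changes were 1.82 for KCNF1 and -1.12 for CELSR1. Without S0326 and S0384 they were 2.03 for KCNF1 and -1.16 for CELSR1, and neither passed the adjusted threshold. All 10 genes were chosen by their p in these libraries, so a kept direction is no separate support. With all 10 brain libraries, limma gave an unadjusted p of 0.546 for SPRY1, 0.170 for NADSYN1 and 0.161 for GCNT2. It was 0.0897 for NEFH and 0.0651 for TNRC18, and under 0.05 for CCDC71, KCNF1, FREY1, C1QL2 and CELSR1.

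**Figure D2:**
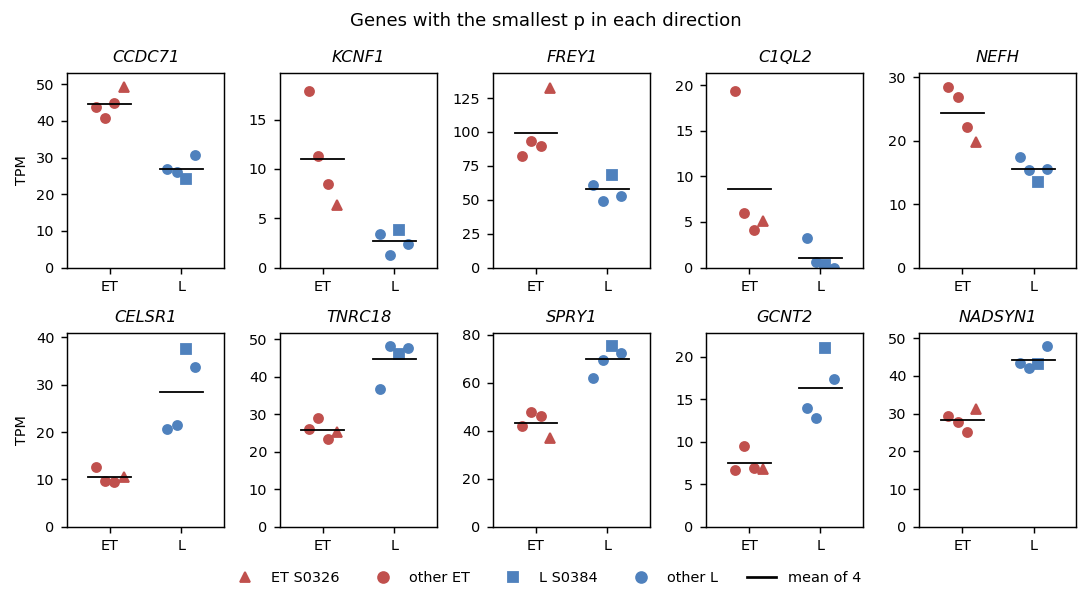
TPM per library for the 5 genes with the smallest p on the ET side (top) and on the L side (bottom), with ET left of L and the mean of 4 as a line. The ranges of the 2 types do not overlap in any of the 10 panels, and S0242 holds the highest ET value of C1QL2 and KCNF1.

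**Figure D3:**
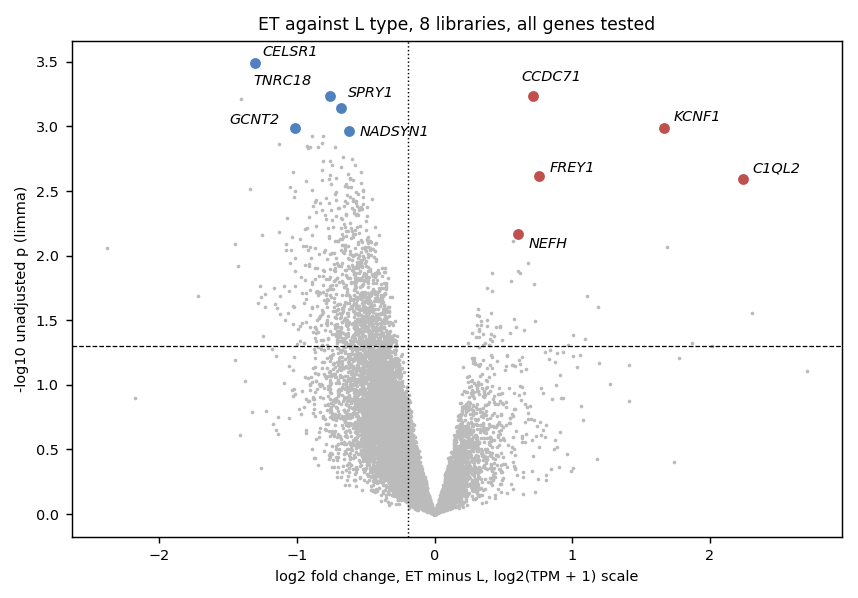
Log2 fold change (ET minus L, log2(TPM + 1) scale) against -log10 of the unadjusted limma p for the 13096 genes tested. The dashed line marks the unadjusted threshold and the dotted line the median of -0.19, and the cloud above the dashed line holds 1025 genes on the L side against 55 on the ET side.

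Without S0326 and S0384, with 3 libraries against 3, 1 of 13007 genes (0.00769%) was called, and 2026 had an unadjusted p under 0.05, 182 of them higher in ET (1.4%) and 1844 lower (14.2%). The gene was HAAO, an enzyme of the kynurenine pathway from tryptophan to NAD, with a log2 fold change of -3.48 and an adjusted p of 0.0397 by limma. In all 8 libraries HAAO was at 1.38, 2.76, 2.80 and 7.55 TPM in the ET libraries and 46.5, 36.0, 3.58 and 25.8 TPM in the L libraries. S0384 alone among the L libraries lay within the ET range, and the log2 fold change over the 8 was -2.38 (95% interval -3.999 to -0.77; adjusted p = 0.585 by limma). The left-out brain libraries had 1.68 TPM in ET S0235 and 8.07 TPM in L S0355. HAAO was named after its values were seen, as were PIGR and the genes of the lists below that are not hormones, pituitary factors, receptors or granule proteins.

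None of the 11 pituitary lineage factors tested passed at an adjusted or an unadjusted p under 0.05, and their median log2 fold change was -0.12, against -0.19 over all genes. PITX1 averaged 139.7 ± 36.2 TPM in ET and 158 ± 77.1 TPM in L (SD, n = 4 each). SIX6, a homeobox factor of the pituitary and hypothalamus, averaged 18.3 ± 3.04 TPM in ET and 22.6 ± 3.84 TPM in L (SD, n = 4 each). INSM1, a zinc-finger factor of endocrine cells, averaged 129 ± 16.9 TPM in ET and 142 ± 46.4 TPM in L (SD, n = 4 each). GATA2, a factor of gonadotrophs and thyrotrophs, averaged 7.84 ± 4.23 TPM in ET and 12.7 ± 7.09 TPM in L (SD, n = 4 each), and SOX2, a factor of pituitary stem cells, averaged 87.8 ± 28.4 TPM in ET and 114 ± 62.1 TPM in L (SD, n = 4 each). All of these ranges overlapped. Without S0326 and S0384, 3 of the 11 were lower in ET at an unadjusted p under 0.05, or 27.3%, against 14.2% of all genes in that comparison, and none at an adjusted p. GATA2 and INSM1 were among them, with log2 fold changes of -0.62 and -0.32.

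Of 12 receptors and feedback genes tested, none had an unadjusted p under 0.05, and their median log2 fold change was -0.28. DRD2, the dopamine receptor that restrains prolactin release, was at 208, 96.9, 116 and 132 TPM in the ET libraries and 100.5, 81.8, 61.8 and 124 TPM in the L libraries, with a log2 fold change of 0.57 (95% interval -0.06 to 1.19). Median-ratio scaling put it at 0.76 with an unadjusted p of 0.023 and an adjusted p of 0.826 by limma. GNRHR averaged 22.2 ± 10.5 TPM in ET and 29.8 ± 17.1 TPM in L (SD, n = 4 each). NR3C1, the glucocorticoid receptor of corticotroph feedback, averaged 17.5 ± 6.18 TPM in ET and 18.9 ± 4.50 TPM in L (SD, n = 4 each). INHBB, the inhibin and activin subunit, averaged 39.3 ± 17.2 TPM in ET and 42.7 ± 15.1 TPM in L (SD, n = 4 each). Of the 12, 1 was lower at an unadjusted p under 0.05 once S0326 and S0384 were left out. That is 8.33%, below the 14.2% of all genes that were lower in that comparison.

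Of 22 genes of prohormone processing and dense-core granules tested, none had an unadjusted p under 0.05, and their median log2 fold change was -0.13. SCG2, the granule protein secretogranin II, was at 3175, 3205, 2566 and 1186 TPM in the ET libraries and 1743, 1860.0, 1291 and 2154 TPM in the L libraries, and 3 ET libraries lay above every L library while S0326 was the lowest of the 8. Without S0326 and S0384 its log2 fold change was 0.63, with an unadjusted p of 0.00485 and an adjusted p of 0.198 by limma. CHGA went the other way in that comparison, at -1.02 (unadjusted p = 0.00176, adjusted p = 0.175 by limma). CPE, the carboxypeptidase that trims prohormone fragments, averaged 213 ± 107 TPM in ET and 227 ± 119 TPM in L (SD, n = 4 each). SNAP25, a protein of vesicle fusion, averaged 526 ± 148 TPM in ET and 527 ± 119 TPM in L (SD, n = 4 each). Without S0326 and S0384, 2 of the 22 were higher and 2 lower at an unadjusted p under 0.05, or 9.09% each. Over all genes in that comparison, 1.4% were higher and 14.2% lower. The summed level of the granule list was 4974 to 10193 TPM in ET and 5059 to 9424 TPM in L.

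Of 14 endothelial and pericyte genes tested, none was called, and 7 were lower in ET at an unadjusted p under 0.05, or 50% of the list, against 7.83% of all genes. Their median log2 fold change was -0.50. Like every list here, this list was chosen with earlier results of these data known, so its share is a description and no separate test. PDGFRB, a pericyte growth factor receptor, was at 4.72, 4.97, 7.56 and 2.70 TPM in the ET libraries and 11.9, 9.10, 10.4 and 8.98 TPM in the L libraries. FLT1, a receptor for vascular endothelial growth factor, was at 10.3, 6.91, 7.59 and 5.60 TPM in the ET libraries and 14.4, 12.4, 22.1 and 11.6 TPM in the L libraries. NOTCH3, a receptor of vascular mural cells, was at 13.9, 10.1, 9.52 and 7.04 TPM in the ET libraries and 18.3, 22.1, 12.8 and 15.9 TPM in the L libraries. The types did not overlap for PDGFRB and FLT1, and 1 ET library, S0242, lay within the L range for NOTCH3. The log2 fold changes were -0.94, -0.89 and -0.73, and these 3 alone of the list remained at an unadjusted p under 0.05 after median-ratio scaling, or 21.4% against 3.42% of all genes, where the median of the list was -0.32. With both libraries S0326 and S0384 left out the number was 4, or 28.6% of the list against 14.2% of all genes, with a median of -0.41. CLDN5, a tight junction protein of endothelium, did not share this pattern, at 11.3, 26.0, 18.3 and 80.8 TPM in the ET libraries and 14.3, 25.7, 88.3 and 13.2 TPM in the L libraries, with S0326 and S0384 the highest libraries. The summed level of the list was 217 to 347 TPM in ET and 297 to 455 TPM in L, and its ranges overlapped.

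Of 13 genes of fatty acid synthesis tested, none was called and 4 were lower in ET at an unadjusted p under 0.05, or 30.8%, against 7.83% of all genes. The choice of this list, too, was made with earlier results of these data known, and its share is a description. ACLY, which makes cytosolic acetyl-CoA, was at 104, 100.9, 100.4 and 74.3 TPM in the ET libraries and 130.1, 132, 113 and 132 TPM in the L libraries. ACACA, which makes malonyl-CoA, was at 19.8, 20.9, 20.4 and 18.003 TPM in the ET libraries and 23.6, 29.4, 25.2 and 34.6 TPM in the L libraries. FASN, the synthase itself, was at 83.9, 70.4, 50.3 and 38.5 TPM in the ET libraries and 83.8, 118, 78.6 and 162 TPM in the L libraries. SREBF1, a transcription factor for these enzymes, was at 17.0, 11.7, 11.7 and 11.7 TPM in the ET libraries and 16.5, 18.7, 19.0 and 21.7 TPM in the L libraries. The types did not overlap for ACLY and ACACA, while 1 ET library of FASN and 1 of SREBF1 lay within the L range. The log2 fold changes were -0.42, -0.48, -0.85 and -0.52, and the median of the list was -0.30. After median-ratio scaling 2 of the 13, ACLY and FASN, remained at an unadjusted p under 0.05, or 15.4% against 3.42% of all genes. With S0326 and S0384 left out the number was 4, or 30.8% against 14.2% of all genes.

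The other lists held few members at an unadjusted p under 0.05, to be read against 7.83% of all genes lower and 0.42% higher. In the growth hormone and insulin-like growth factor list, 3 of 17 genes tested were lower (17.6%), among them IRS2, an adaptor of the insulin receptor, at 18.6, 15.8, 12.6 and 10.96 TPM in the ET libraries and 20.2, 32.0, 23.1 and 26.1 TPM in the L libraries. In the hypoxia and redox list, 1 of 19 was lower, TXNIP, an inhibitor of thioredoxin, at 169.8, 210.4, 257 and 75.6 TPM in the ET libraries and 478, 391, 377.1 and 415 TPM in the L libraries. The types did not overlap for IRS2 or TXNIP, and the log2 fold changes were -0.77 and -1.34. In the thyroid and retinoid list, 3 of 20 were lower (15%), and 0 after median-ratio scaling. In the glucocorticoid response list, 1 of 14 was lower, KLF15, a factor induced by glucocorticoids, at 23.8, 20.5, 24.8 and 26.7 TPM in the ET libraries and 27.2, 43.6, 58.7 and 75.1 TPM in the L libraries, and the median of the list was -0.45. In the folliculostellate and stem cell list, 1 of 14 was higher, PROM1, a stem cell membrane protein, at 2.77, 2.39, 2.58 and 2.11 TPM in the ET libraries and 1.49, 1.21, 2.08 and 1.23 TPM in the L libraries. Without S0326 and S0384, where 14.2% of all genes were lower and 1.4% higher, 4 genes of the glucocorticoid response list were lower (28.6%). In the immediate early list of 18 genes, with 0 in either direction over the 8 libraries, 4 were then lower (22.2%) and 1 higher. In the hypoxia and redox list 2 were then lower (10.5%) and 1 higher, and in the collagen and matrix list 2 of 24 were higher (8.33%), against 0 over the 8 libraries.

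Of 40 ribosomal protein genes, 4 were higher and 1 lower at an unadjusted p under 0.05, with a median log2 fold change of 0.16. Over all genes 0.42% were higher. After median-ratio scaling 12 were higher (30%, against 2.62% of all genes) and 0 lower, with a median of 0.36. In the 6 libraries other than S0326 and S0384, 0 were higher and 1 lower, with a median of 0.14. Over all genes in those 6 libraries 1.4% were higher and 14.2% lower. HBB, beta globin of red cells, was at 27.0, 258, 77.0 and 73.5 TPM in the ET libraries and 28.6, 2.71, 53.1 and 10.9 TPM in the L libraries, with ET animal S0276 the highest library. The summed level of the 5 matched red cell genes was 39.3 to 367 TPM in ET and 4.75 to 74.6 TPM in L, and their part in the other results was not tested. Of the 3 red cell genes tested, 1 was higher at an unadjusted p under 0.05 (33.3%, against 0.42% of all genes). Without S0326 and S0384, 2 were higher (66.7%, against 1.4% of all genes). The myelin list summed to 129.7 to 213 TPM in ET and 143 to 230.1 TPM in L and the astrocyte list to 32.2 to 92.5 TPM in ET and 32.6 to 124 TPM in L, overlapping ranges in both cases.

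**Figure D4:**
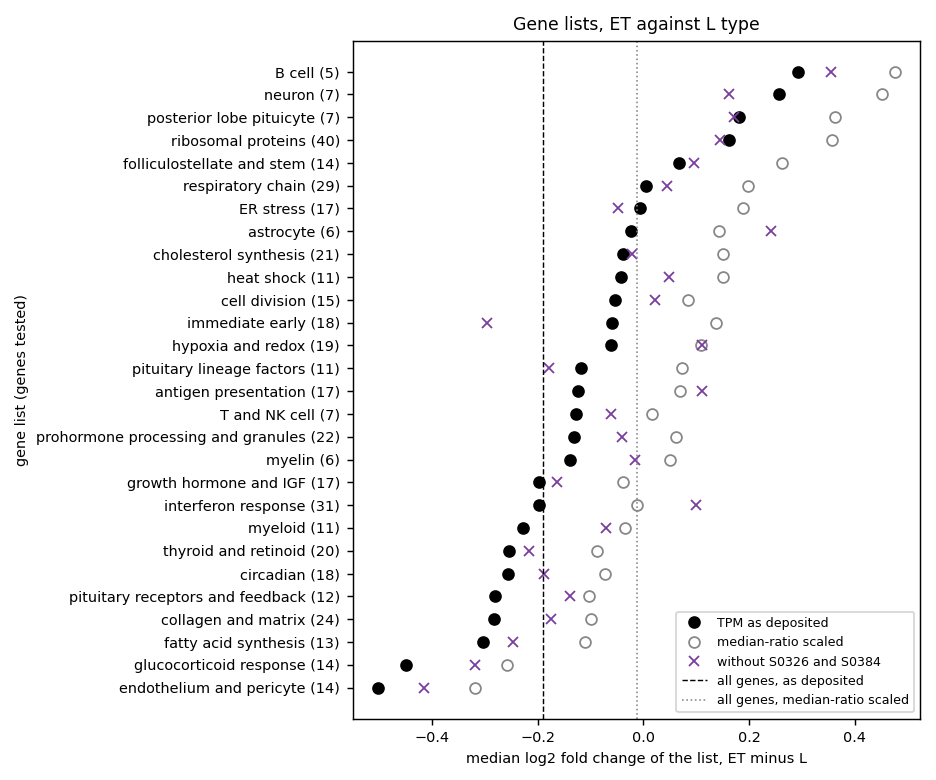
Median log2 fold change (ET minus L) of each list with at least 5 genes tested, from the TPM as deposited (filled), after median-ratio scaling (open) and without S0326 and S0384 (crosses), with the median of all genes as a dashed line at -0.19 and a dotted line at -0.01 after scaling. The endothelium and pericyte list lies lowest at -0.50 as deposited, and the ribosomal list lies at 0.16.

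The same 8 animals also gave backfat, loin, lymph and tenderloin, so each animal's brain level was set against the mean of its own other tissues, which asks whether the type difference in brain departs from that elsewhere. None of the 13096 genes passed an adjusted p under 0.05 by limma (0 called, 0%), and 1634 (12.5%) had an unadjusted p under 0.05. Of these, 218 had a positive and 1416 a negative difference of differences. Its median over all genes was -0.19, and 73.1% of the genes had a negative value. After median-ratio scaling the median was 0, with 939 positive and 708 negative at an unadjusted p under 0.05. The unscaled differences of differences below are best read against -0.19. The smallest adjusted p was 0.215. A fit over the 40 libraries with no replicate block, which ignores that tissues came from the same animals, called 3 genes, KCNF1, C1QL2 and PIGR, at adjusted p of 4.28e-05, 0.000168 and 9.27e-05. PIGR, the epithelial receptor that carries polymeric antibodies, was at 1.20, 1.31, 1.02 and 0.214 TPM in the ET libraries and 3.53, 3.12, 3.76 and 5.88 TPM in the L libraries in brain.

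The 6 genes of each direction with the smallest p are given by their levels in brain and in other tissues. For FREY1 and KCNF1 the types lay apart in brain, with ET above L. FREY1 averaged 99.3 ± 22.5 TPM in ET and 57.8 ± 8.51 TPM in L in brain, and 11.7 ± 7.15 TPM in ET and 11.5 ± 3.34 TPM in L in backfat (SD, n = 4 each). In loin FREY1 lay lower in ET, at 1.28 ± 0.555 TPM in ET and 2.61 ± 0.420 TPM in L. The difference of differences was 0.93 log2 units (95% interval 0.61 to 1.25; limma, adjusted p = 0.215), and the 4 ET animals lay above the 4 L animals. For KCNF1 it was 1.68 log2 units (95% interval 0.90 to 2.46), nearly all of it from brain, and for C1QL2 it was 2.24 (95% interval 1.01 to 3.47).

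For PSPH, the enzyme of the last step of serine synthesis, the types lay apart in backfat, loin and tenderloin. In brain it averaged 19.8 ± 2.91 TPM in ET and 20.0 ± 1.87 TPM in L (SD, n = 4 each), which are overlapping ranges. In backfat it averaged 31.5 ± 22.9 TPM in ET and 1.45 ± 1.02 TPM in L, in loin 6.01 ± 1.25 TPM in ET and 0.402 ± 0.260 TPM in L and in tenderloin 4.61 ± 0.286 TPM in ET and 0.863 ± 0.297 TPM in L. In lymph it averaged 1.70 ± 0.693 TPM in ET and 1.81 ± 0.742 TPM in L, and the ranges overlapped. The difference of differences was -1.84 log2 units (95% interval -2.38 to -1.30; limma, adjusted p = 0.215), and without ET animal S0276 it became the 1 gene called, at -2.08 with an adjusted p of 0.0199. PCYOX1, which breaks down prenylated cysteines, averaged 69.9 ± 16.5 TPM in ET and 69.4 ± 12.7 TPM in L in brain and 353 ± 241 TPM in ET and 27.7 ± 8.59 TPM in L in backfat. CCDC80, a secreted matrix protein, averaged 24.8 ± 6.48 TPM in ET and 32.2 ± 8.66 TPM in L in brain and 496 ± 261 TPM in ET and 78.9 ± 29.4 TPM in L in backfat. For both genes the types also lay apart in tenderloin, and for PCYOX1 in loin, each time with ET higher. Their differences of differences were -1.28 and -1.90 log2 units, and neither passed the adjusted threshold.

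AMPD3, an AMP deaminase, averaged 12.8 ± 4.58 TPM in ET and 15.2 ± 1.55 TPM in L in brain and 4.72 ± 2.05 TPM in ET and 126 ± 67.6 TPM in L in loin, with a difference of differences of 1.54 log2 units. The types lay apart for AMPD3 in loin, lymph and tenderloin, with ET lower in each. MLLT11, a small protein found in developing neurons, averaged 9.12 ± 4.92 TPM in ET and 5.39 ± 2.36 TPM in L in brain and 1.88 ± 1.88 TPM in ET and 23.4 ± 6.19 TPM in L in tenderloin, with 1.92 log2 units. DYNLRB2, a light chain of dynein, averaged 47.0 ± 18.7 TPM in ET and 34.1 ± 3.33 TPM in L in brain and 2.03 ± 0.757 TPM in ET and 7.16 ± 4.56 TPM in L in tenderloin. Its ranges overlapped in all 5 tissues, and the difference of differences was 1.23 log2 units. SAL1, the salivary lipocalin of pigs, averaged 6.34 ± 3.21 TPM in ET and 10.2 ± 1.56 TPM in L in brain and 189.9 ± 235.1 TPM in ET and 3.83 ± 2.77 TPM in L in backfat, where the ET range of 0.214 to 533 TPM covered the L range of 1.36 to 7.53 TPM. RGCC, a regulator of the cell cycle, averaged 11.6 ± 3.46 TPM in ET and 18.5 ± 3.58 TPM in L in brain and 91.7 ± 29.1 TPM in ET and 29.1 ± 28.2 TPM in L in backfat, with overlap in both tissues. MXRA5, a matrix protein, averaged 4.78 ± 0.884 TPM in ET and 8.81 ± 2.50 TPM in L in brain and 12.97 ± 11.9 TPM in ET and 2.69 ± 1.48 TPM in L in backfat, without overlap in either tissue and in opposite directions. In lymph it averaged 21.0 ± 4.87 TPM in ET and 23.5 ± 5.19 TPM in L, and the ranges overlapped. For SAL1, RGCC and MXRA5 the differences of differences were -1.69, -1.44 and -1.28 log2 units. The adjusted p of these 6 genes by limma lay between 0.215 and 0.296.

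**Figure D5:**
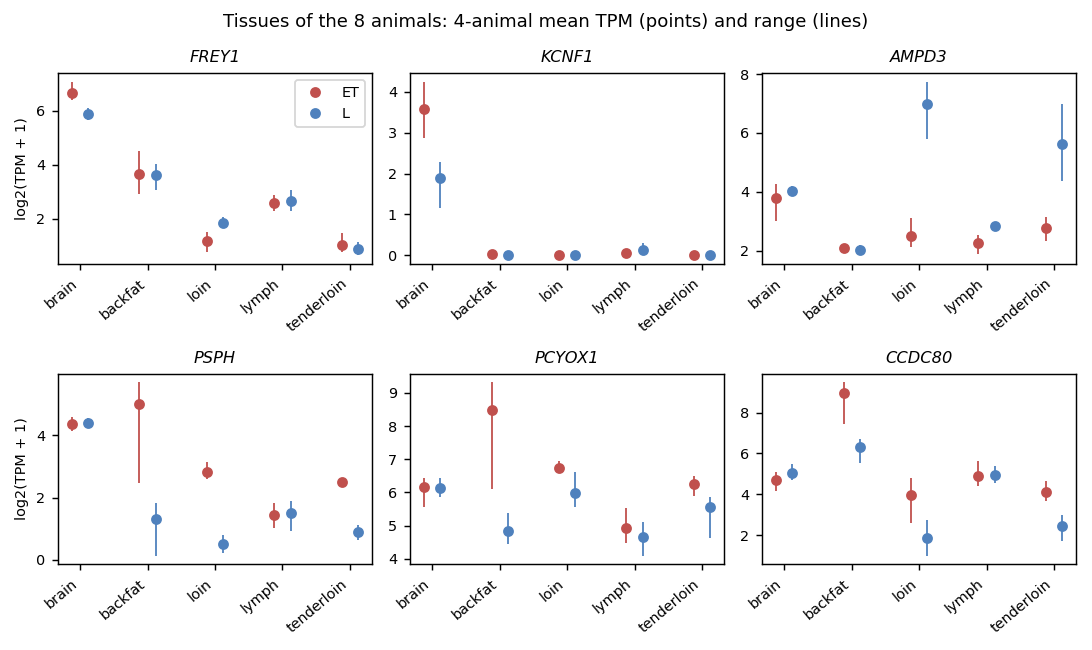
Levels of 6 genes as log2(TPM + 1) of the 4-animal mean (points) with the lowest and highest animal (lines) in 5 tissues, ET left of L. In brain FREY1 and KCNF1 are higher in ET without overlap. PSPH, PCYOX1 and CCDC80 overlap in brain and are separated in backfat and tenderloin, and PSPH and PCYOX1 also in loin. AMPD3 is separated in loin, lymph and tenderloin.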

How the data were processed

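The deposited values are TPM of 57085 assembled transcripts, for which the submitters' processing notes name Trimmomatic 0.36, Salmon 1.10.0 and the pig build Sscrofa11.1 without stating the role of that build. No reference genome was used here, and no counts or read depth were recovered. TPM were summed by the Swiss-Prot entry of the best deposited BLASTX hit (E at most 1e-10), which used 32155 transcripts in 14413 genes. Entries of several species were merged, and median identity was 92.9%, so names denote the best-matching protein, and near-identical families (globins, C1q-like proteins, lipocalins, ribosomal proteins) are uncertain. Repeat or retroviral hits (2445 transcripts) were left out.

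Types were compared by limma (version 3.58.1, R 4.3.3) with a mean-variance trend, on log2(TPM + 1) of genes with a mean of at least 1 TPM. Tests were two-sided, p-values were adjusted by Benjamini-Hochberg across every gene tested, and the call threshold was an adjusted p of 0.05. The comparison with other tissues used 1 value per animal from 40 libraries, since the labels give the same animal number in each tissue. As a check, deviations from group means were correlated across genes between brain and each other tissue: the median r was 0.19 within an animal (32 pairs) and -0.05 between animals of a type (96 pairs). Deviations from a group mean cancel out within the group, so the second value depends on the first and is no separate baseline. The 33 gene lists held 559 distinct genes, of which 498 were matched. Members and lists were chosen with earlier results of these data known. Named genes were, per direction and with a mean of at least 5 TPM in the higher type, the 5 with the smallest p where fewer than 5 were called, and the 6 with the smallest p against the other tissues. Pituitary hormones, factors, receptors and granule genes could be given by value, and some of them are not reported here. Alternatives were another pseudocount, filters, scalings, 1 transcript per gene, all 10 brain libraries, a POMC covariate, no trend, and leaving out libraries. Leaving out both S0326 and S0384 was added after seeing the data.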

Additional observations from a re-analysis of the deposited data

Results flagged for a closer look

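A library lay far from the other 3 of its type for 14 of the 134 sets of 4 values examined. Chance flags about 1 in 20 sets of independent, normally distributed values. These sets are TPM of genes partly chosen from the same data and share libraries, so that rate gives no measure of an excess here. L animal S0384 gave 9 of the 14. It was highest for POMC (21736 TPM, against 5271 to 7968 in the other L libraries), PCSK2 (194 TPM, against 19.3 to 48.8), OXT (945.0 TPM, against 10.5 to 93.9), NKX2-1 (158 TPM, against 1.71 to 21.3), CLDN5 (88.3 TPM, against 13.2 to 25.7), MLLT11 (8.91 TPM, against 3.99 to 4.61) and MXRA5 (12.5 TPM, against 7.32 to 7.98). It was lowest for INSM1 (72.4 TPM, against 160.1 to 169) and ACLY (113 TPM, against 130.1 to 132).

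ET animal S0326 was highest for AVP (301 TPM, against 11.7 to 30.9 in the other ET libraries) and lowest for ACLY (74.3 TPM, against 100.4 to 104). ET animal S0242 was highest for C1QL2 (19.4 TPM, against 4.16 to 5.94) and for SREBF1 (17.0 TPM, against 11.7 to 11.7). ET animal S0276 was highest for GCNT2 (9.53 TPM, against 6.65 to 6.95).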

How the results depend on the processing

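The brain comparison called 0 genes under the alternatives run on the 8 libraries or on all 10, except with 1 transcript per gene, where 1 was called and was lower in ET. It was PLEKHF1, named after its values were seen, listed at 0 in all 4 ET libraries and at 4.43, 3.16, 2.67 and 4.03 TPM in the L libraries for that transcript (adjusted p = 0.0210 by limma). With all its transcripts summed it was at 2.20, 2.33, 2.95 and 1.41 TPM in the ET libraries and 5.78, 4.39, 3.75 and 5.46 TPM in the L libraries, not called. Leaving out both S0326 and S0384 also called 1 gene, lower in ET (HAAO). Leaving out any single library gave 0 calls. The number of genes at an unadjusted p under 0.05 ranged from 501 (all 10 brain libraries) to 2780 (POMC covariate), and was 515 without L S0385 and 616 without L S0377, against 1080. For the brain difference against the other tissues, the paired fit called 0, the fit with no replicate block called 3, and leaving out single animals gave 0 to 1, the 1 being PSPH without ET S0276. The 10 genes of the type comparison and the 12 of the tissue comparison kept their direction in every alternative run for them, and the 3 library summaries kept theirs and did not pass. Those genes were chosen by their p in the same data, so a kept direction is no separate support. Depth is unknown, so a limit of detection could not be set.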

Other observations

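In the 2 brain libraries left out of the comparison, which are 1 ET and 1 L animal and were not compared as types, AVP was at 0.253 TPM in ET S0235 and 168 TPM in L S0355, and OXT at 0.907 and 167 TPM. KCNF1, the potassium channel subunit that separated the types in the 8 libraries, was at 10.3 TPM in ET S0235 and 0.371 TPM in L S0355. FREY1 was at 261 and 93.5 TPM, and CCDC71 at 29.2 and 22.01 TPM, ET S0235 first in each case. CELSR1 was at 11.7 TPM in ET S0235 and 17.9 TPM in L S0355. C1QL2, by contrast, was at 4.53 TPM in ET S0235 and 5.11 TPM in L S0355. The 2 libraries also differed in neuronal transcripts, with the neuron list summing to 595 TPM in ET S0235 and 78.6 TPM in L S0355. The part of that difference in the values above was not tested.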
